A study of Mus musculus with 30 samples.

Results

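The interferon response genes are 48 genes that cells switch on when they sense interferons, antiviral signalling proteins. They are given by gene name, and although the rule uses no measured value, the list was drawn up with earlier results of these data known. All 48 were found among the 47069 genes of the count table. They were followed in 6 groups of RNA sequencing libraries from C57BL/6 mice, an inbred laboratory strain: the duodenum, the first stretch of the small intestine, on a diet with fructose, with dextrose (D-glucose) or with corn starch as the control, and the liver on the same diets. Each group had 5 libraries, 30 in all, made from poly-A RNA of whole tissue. The labels give no length of feeding, age or sex, no other treatment, and nothing that says the libraries of a group came from separate mice, so p-values measure only the spread between these samples.

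Interferons of type I bind the receptor Ifnar1 and Ifnar2, those of type III (the lambda interferons) bind Ifnlr1 with Il10rb, and interferon gamma binds Ifngr1 and Ifngr2. Kinases such as Jak1 and Tyk2 then activate transcription factors, among them Stat2, which works with Irf9 at interferon-stimulated response elements in promoters, while interferon gamma acts largely through gamma-activated sites. In the intestine, epithelial cells respond mainly to lambda interferons and immune cells to type I interferons, and signals from gut microbes are known to keep a low level of these genes on in the absence of infection. The 48 genes fall into 10 groups by role: IFIT proteins, ISG15 conjugation, the OAS family, other antiviral effectors, sensors of RNA and DNA, transcription factors, PARP9 and its partners, GTPases of the GBP and IRG families, antigen processing, and the chemokine Cxcl10.

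Total counts ran from 14530137 to 19850935 per library. Values below are CPM, read counts brought to a common library total and scaled between the 15 libraries of a tissue, given in every library, and log2 fold changes with their standard error (SE) from a fit to all genes of the tissue; 1 on the log2 scale is a doubling. A gene was called higher or lower at a Benjamini-Hochberg adjusted p under 0.05 by the quasi-likelihood test of edgeR over all genes tested. All 48 genes passed the filter on low counts in each comparison. Whole tissue was sequenced, so that fewer cells of a type and less RNA per cell cannot be told apart. The summed hepatocyte markers followed the tissue labels, with 223 to 678 CPM in duodenum libraries and 72595 to 119470 CPM in liver libraries. Some libraries stood apart. Duodenum fructose 3 and control 3 held 83.4 and 169 CPM of pancreatic acinar markers, against 9.1 to 39.4 CPM in the other 13 duodenum libraries. Duodenum control 5 held the 678 CPM of hepatocyte markers, a smaller gap, as fructose libraries reached 548 CPM and dextrose libraries 473 CPM. Liver dextrose 5 and control 2 held 223 and 210 CPM of cell cycle genes, against 5.3 to 13.7 CPM in the other 13 livers. Counts of calls are therefore also given without these 5 libraries. The acinar markers were higher still in some livers, at 197 and 1144 CPM in dextrose 4 and dextrose 5 and 227 and 438 CPM in control 2 and control 5, against 0.88 to 89.1 CPM in the other 11.

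In the duodenum, 25 of the 48 genes rose on fructose relative to the control diet and 0 fell. Over all 13884 genes tested, 4.01% were called higher and 2.7% lower on fructose. As the list was chosen with earlier results known, the counts and the background shares are given as a description. On dextrose 23 of the 48 rose and 0 fell, against 1.15% of all genes called higher and 1.09% lower. The median log2 fold change of the 48 was 0.66 on fructose and 0.64 on dextrose, against -0.02 and -0.01 over all genes. For 18 of the 48 on fructose and 25 on dextrose, all 5 libraries of the sugar lay above all 5 control libraries, which held for 4.15% and 1.78% of all genes. Both comparisons use the same 5 control libraries, so a high or low control moves both; their values are set side by side below and are not independent of each other. Without the 3 duodenum libraries that stood apart, 9 of the 48 were called on fructose and 6 on dextrose, with medians of 0.53 and 0.54, and each of these was also called with all libraries. The 3 included control 3 and control 5, so fewer controls remained, and the part of that in the lower counts was not tested. Leaving out 1 library at a time gave 20 to 28 calls on fructose and 13 to 26 on dextrose; without dextrose 1 there were 13, without control 1 14, and without control 2 or control 3 15 each.

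**Figure D1:**
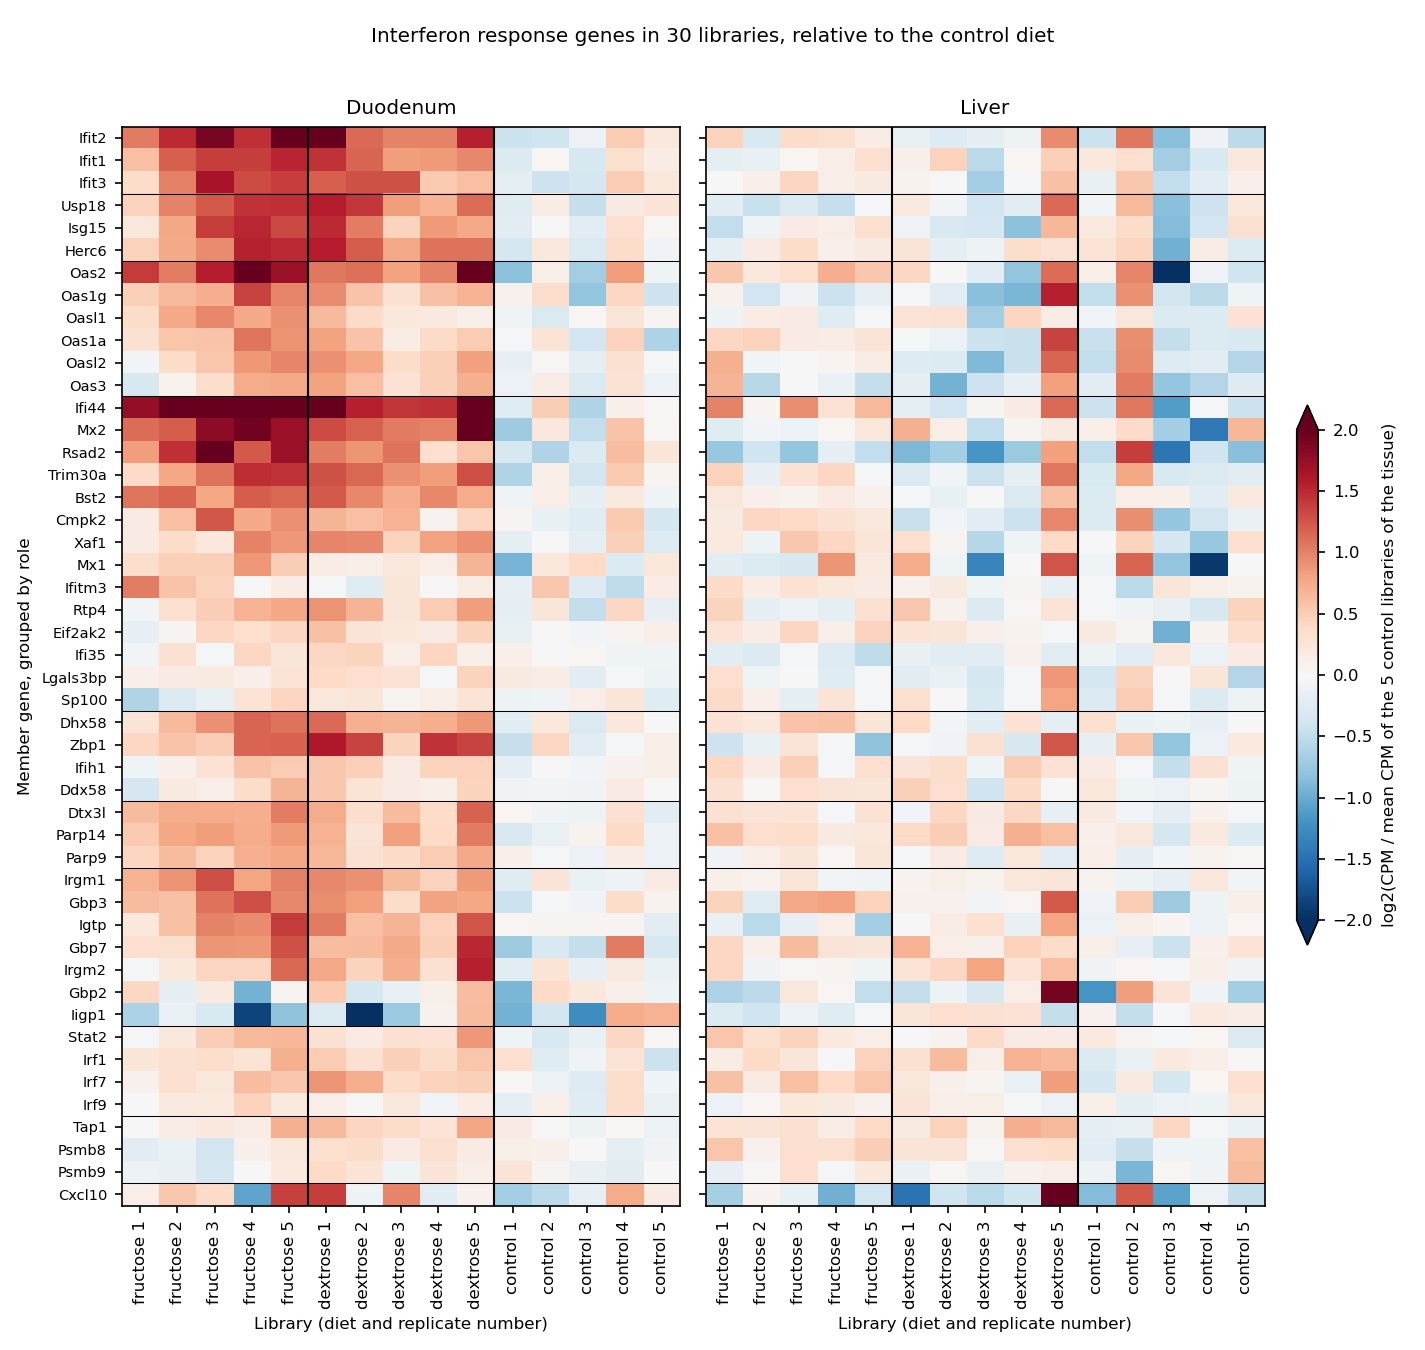
Level of the 48 interferon response genes (rows, by role) in each of the 30 libraries (columns), as log2 CPM relative to the mean of the 5 control libraries of the same tissue; red is above and blue below that mean. In the duodenum most rows are red across the fructose and dextrose columns, and in the liver the columns with the highest median difference over the 48 genes, on log2(CPM + 1), are dextrose 5 and control 2, at 0.60 and 0.29, with the fructose columns at 0.08 to 0.27.

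The clearest differences in the duodenum were in 4 genes: Bst2, Ifi44, Ifit1 and Irgm1 had the smallest p in both comparisons with control. Bst2 encodes tetherin, which holds budding enveloped viruses at the cell surface, Ifi44 is a widely used marker of interferon exposure, Ifit1 binds viral RNA with an unmodified cap, and Irgm1 is a GTPase that steers membranes around intracellular pathogens in mice. Their promoters, from RefSeq on the mouse build GRCm38.p6, are shown because these genes differed most. Exact core letters of the pathway's response element are present in some of them and not in others. Each runs 5′ to 3′ on the gene's own strand, from 250 bases before the start to 50 after it. Capitals mark the letters GAAANNGAAA on either strand, the core of the response element, with overlapping matches run together.
Bst2, chr8:71537423-71537722, minus strand: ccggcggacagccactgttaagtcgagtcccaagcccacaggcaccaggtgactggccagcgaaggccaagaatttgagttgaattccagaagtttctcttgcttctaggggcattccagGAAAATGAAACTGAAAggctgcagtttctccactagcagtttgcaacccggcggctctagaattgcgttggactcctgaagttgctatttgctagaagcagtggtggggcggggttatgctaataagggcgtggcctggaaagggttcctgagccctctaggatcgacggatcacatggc
Ifi44, chr3:151749861-151750160, minus strand: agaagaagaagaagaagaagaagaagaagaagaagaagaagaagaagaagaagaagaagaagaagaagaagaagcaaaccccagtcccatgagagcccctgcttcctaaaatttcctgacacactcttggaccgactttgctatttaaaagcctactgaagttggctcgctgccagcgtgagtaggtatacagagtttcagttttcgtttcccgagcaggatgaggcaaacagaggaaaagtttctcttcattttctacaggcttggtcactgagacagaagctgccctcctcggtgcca
Ifit1, chr19:34640639-34640938, plus strand: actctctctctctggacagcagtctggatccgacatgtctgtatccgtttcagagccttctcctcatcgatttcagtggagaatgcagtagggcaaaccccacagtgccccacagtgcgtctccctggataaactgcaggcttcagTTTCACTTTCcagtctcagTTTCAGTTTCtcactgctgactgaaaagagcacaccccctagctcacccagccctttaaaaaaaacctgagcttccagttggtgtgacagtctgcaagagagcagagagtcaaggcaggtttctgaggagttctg
Irgm1, chr11:48871371-48871670, minus strand: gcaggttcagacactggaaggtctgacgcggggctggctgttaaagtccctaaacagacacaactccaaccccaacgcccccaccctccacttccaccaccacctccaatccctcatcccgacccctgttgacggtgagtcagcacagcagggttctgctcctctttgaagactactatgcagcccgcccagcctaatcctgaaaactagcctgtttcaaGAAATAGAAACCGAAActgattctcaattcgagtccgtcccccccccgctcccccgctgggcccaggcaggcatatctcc

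Bst2 had 2 overlapping matches, beginning 130 and 124 bases before the start, Ifit1 had 2 that began 104 and 85 bases before it, and Irgm1 had 2 overlapping ones that began 30 and 24 bases before it. Ifi44 had no match in this window. Only these exact letters were searched, so this does not show that Ifi44 lacks the element. Of the 48 genes, 38 had a promoter entry, and 21 of these (55.3%) held the letters, against 3.99% of 27025 genes with a promoter of the same length in the table. The shorter letters TTCNNNGAA, which read the same on both strands and are the core of the gamma-activated site, were in 11 of the 38 (28.9%), against 9.55% of genes. The response element letters were in 11 of the 21 genes with an entry that were called on either sugar and in 10 of the 17 called on neither (52.4% and 58.8%). The match is a description of letters and not of binding. The genes with no entry were Mx1, Mx2, Dhx58, Parp14, Parp9, Oas2, Rtp4, Zbp1, Iigp1 and Usp18.

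For these genes the duodenum libraries on either sugar were apart from the controls. Bst2 was at 27.6, 29.5, 22.5, 30.5 and 29.0 CPM on fructose, 30.5, 25.6, 21.7, 25.6 and 22.0 CPM on dextrose, and 12.4, 14.4, 11.4, 15.1 and 12.3 CPM on control. Every library on either sugar was above every control, with log2 fold changes of 1.08 ± 0.12 on fructose (adjusted p 1.35e-05) and 0.93 ± 0.12 on dextrose (adjusted p 0.000258). Ifi44 was at 11.3, 14.6, 16.9, 22.5 and 30.6 CPM on fructose, 15.7, 9.84, 8.98, 9.26 and 19.5 CPM on dextrose, and 2.83, 4.70, 2.22, 3.60 and 3.40 CPM on control. It had the largest log2 fold change of the 48 on each sugar, 2.51 ± 0.30 on fructose (adjusted p 6.07e-05) and 1.91 ± 0.30 on dextrose (adjusted p 0.00183), again with no overlap with the controls. Irgm1 was at 20.1, 23.1, 30.2, 21.5 and 24.8 CPM on fructose, 24.1, 23.3, 19.3, 17.0 and 22.2 CPM on dextrose, and 10.4, 14.8, 11.3, 11.5 and 13.9 CPM on control. The lowest sugar library, at 17.0 CPM on dextrose, stood above the highest control at 14.8 CPM, and the log2 fold changes were 0.95 ± 0.13 on fructose (adjusted p 0.000217) and 0.77 ± 0.13 on dextrose (adjusted p 0.00349).

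The IFIT genes, whose proteins bind foreign RNA and block its translation, rose on both sugars in 3 of 3 cases. Ifit1 was at 82.2, 125, 141, 141 and 156 CPM on fructose, 148, 122, 96.7, 97.6 and 106 CPM on dextrose, and 44.9, 55.4, 43.2, 67.4 and 60.1 CPM on control. All sugar libraries were above all controls, and the log2 fold changes were 1.25 ± 0.17 on fructose (adjusted p 0.000177) and 1.07 ± 0.17 on dextrose (adjusted p 0.00185). Ifit2, a much lower gene, was at 5.96, 8.13, 10.7, 7.97 and 11.98 CPM on fructose, 13.5, 6.35, 5.74, 5.72 and 8.45 CPM on dextrose, and 2.14, 2.201, 2.65, 4.11 and 3.34 CPM on control. Neither sugar overlapped the controls for Ifit2 either. Its log2 fold changes were 1.63 ± 0.27 on fructose (adjusted p 0.00108) and 1.46 ± 0.27 on dextrose (adjusted p 0.00595). Ifit3 was at 1.203 on fructose, where fructose 1 overlapped the controls, and at 1.01 on dextrose as log2 fold changes, both called (adjusted p 0.00553 and 0.0369). Ifit3 has a near-identical copy in the mouse genome, so reads could have been split between the copies.

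The genes of ISG15 conjugation rose in 3 of 3 cases on both sugars. Isg15 is a ubiquitin-like protein that is attached to other proteins, Herc6 is the main ligase that attaches it in mice, and Usp18 removes it and also quiets the type I receptor. Isg15 was at 37.1, 54.1, 82.2, 89.8 and 78.5 CPM on fructose, 88.9, 63.9, 42.9, 57.2 and 53.2 CPM on dextrose, and 26.9, 31.5, 27.0, 39.8 and 32.4 CPM on control. Its fructose libraries overlapped the controls at the low end, where fructose 1 was below control 4, and its dextrose libraries did not. The log2 fold changes were 1.11 ± 0.23 on fructose (adjusted p 0.00659) and 0.95 ± 0.23 on dextrose (adjusted p 0.0365). Usp18 was at 14.2, 20.5, 24.0, 28.0 and 28.3 CPM on fructose, 30.8, 27.5, 18.5, 16.8 and 22.4 CPM on dextrose, and 8.68, 11.5, 7.45, 11.6 and 12.3 CPM on control. All sugar libraries were above all controls for Usp18, by 1.15 ± 0.21 on fructose (adjusted p 0.0022) and 1.17 ± 0.21 on dextrose (adjusted p 0.00467). Herc6 was at 18.3, 22.5, 25.6, 38.8 and 37.7 CPM on fructose, 39.5, 30.9, 22.5, 28.3 and 28.4 CPM on dextrose, and 10.5, 15.3, 10.9, 17.2 and 12.7 CPM on control. It was likewise apart from the controls, by 1.10 ± 0.21 on fructose (adjusted p 0.00381) and 1.16 ± 0.21 on dextrose (adjusted p 0.00543).

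**Figure D2:**
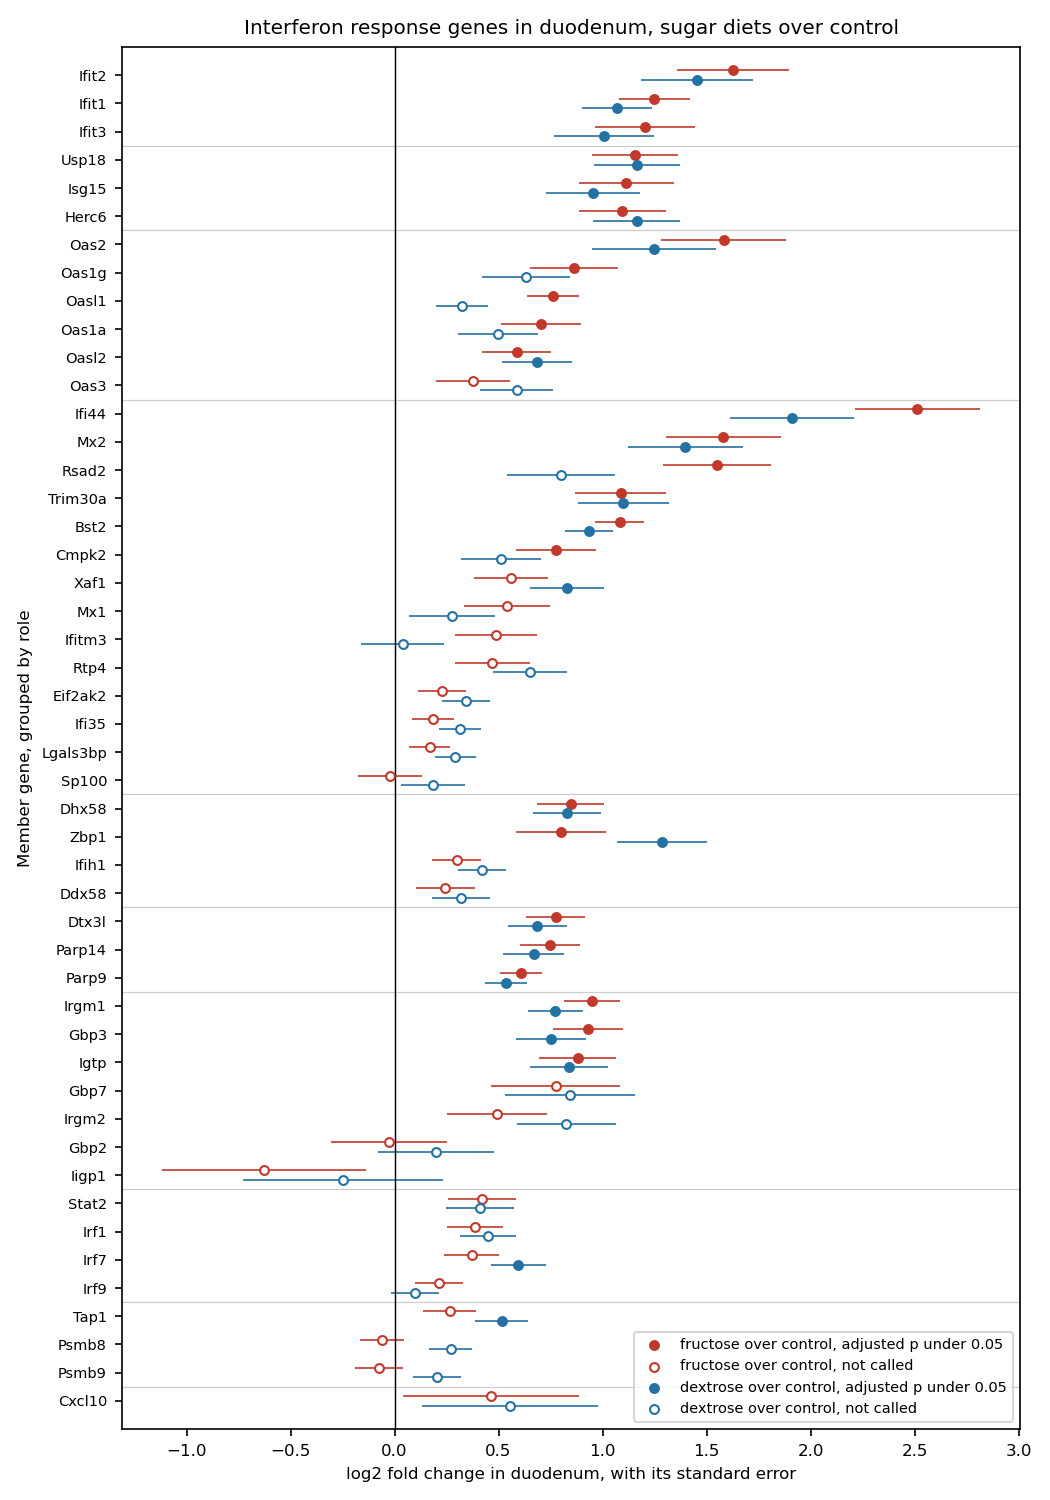
Log2 fold change (x axis, with SE bars) of each of the 48 genes in the duodenum on fructose and on dextrose, both relative to the same 5 control libraries; filled points were called at an adjusted p under 0.05. Ifi44 lies farthest right on both sugars at 2.51 and 1.91, and the filled points all lie to the right of 0.

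The OAS family, whose enzymes make oligoadenylates that activate RNase L against RNA, rose in 5 of 6 cases on fructose and in 2 of 6 on dextrose. Oas2 was at 12.02, 9.34, 13.6, 18.8 and 15.2 CPM on fructose, 9.56, 9.78, 7.99, 9.11 and 18.1 CPM on dextrose, and 2.58, 5.00, 2.83, 8.16 and 4.33 CPM on control. On fructose all 5 libraries were above the controls, by 1.58 ± 0.30 (adjusted p 0.00354), and on dextrose only dextrose 3 was below control 4, with a log2 fold change of 1.25 ± 0.30 (adjusted p 0.0367). Oasl2, which is enzymatically active in mice, was at 101, 134, 152, 189.7 and 204 CPM on fructose, 195, 179, 134, 145 and 184 CPM on dextrose, and 93.2, 105, 90.9, 129 and 102 CPM on control. It rose on both sugars, by 0.59 ± 0.17 on fructose (adjusted p 0.0424), with overlap, and by 0.69 ± 0.17 on dextrose (adjusted p 0.0375), without. Oasl1, which in mice limits the making of Irf7 protein, was at 144, 189, 218, 188 and 211 CPM on fructose, 175, 147, 130.1, 129 and 121 CPM on dextrose, and 105, 91.6, 114, 133 and 116 CPM on control. All fructose libraries were above all controls, with a log2 fold change of 0.76 ± 0.13 (adjusted p 0.00109), and the dextrose libraries overlapped them at 0.32 ± 0.13 (adjusted p 0.29). Oas1a and Oas1g were called on fructose at 0.71 and 0.86 and not on dextrose at 0.50 and 0.63. These 2 genes are close copies of each other, and the split of reads between them is uncertain. Oas3 was not called on either sugar, at 0.38 on fructose and 0.59 on dextrose.

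Among the 14 other antiviral effectors, 6 rose on fructose and 5 on dextrose. Besides Bst2 and Ifi44, Mx2 and Trim30a rose on both sugars, Rsad2 and Cmpk2 on fructose, and Xaf1 on dextrose. Mx2, a dynamin-like GTPase, was at 4.69, 5.02, 7.49, 8.24 and 7.03 CPM on fructose, 5.34, 4.89, 4.43, 4.33 and 9.57 CPM on dextrose, and 1.32, 2.50, 1.54, 3.21 and 2.22 CPM on control. No sugar library overlapped the controls for Mx2, and the log2 fold changes were 1.58 ± 0.28 on fructose (adjusted p 0.00166) and 1.40 ± 0.28 on dextrose (adjusted p 0.0102). Mx1, an influenza resistance gene that is defective in C57BL/6 and most other inbred strains, was at 7.67, 8.30, 8.34, 10.99 and 8.41 CPM on fructose, 6.66, 6.48, 7.05, 6.57 and 9.57 CPM on dextrose, and 3.15, 7.02, 7.89, 4.95 and 6.98 CPM on control. Its groups overlapped, and it was not called, at 0.54 ± 0.21 on fructose (adjusted p 0.139) and 0.28 ± 0.21 on dextrose (adjusted p 0.753).

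Rsad2 encodes viperin, which makes a nucleotide that stops viral polymerases, and its genomic neighbour Cmpk2 is a mitochondrial nucleotide kinase. Rsad2 was at 18.9, 29.0, 47.2, 24.7 and 35.1 CPM on fructose, 21.5, 19.5, 22.5, 13.3 and 15.4 CPM on dextrose, and 8.49, 6.96, 8.69, 16.2 and 12.4 CPM on control. The fructose libraries were all above the controls, by 1.55 ± 0.26 (adjusted p 0.00144), and the dextrose libraries overlapped them, at 0.80 ± 0.26 (adjusted p 0.154). Trim30a, which in mice restrains inflammatory signalling, was at 17.98, 23.6, 29.4, 38.6 and 37.5 CPM on fructose, 33.5, 30.6, 25.9, 24.6 and 33.7 CPM on dextrose, and 9.12, 15.0, 10.7, 19.9 and 14.3 CPM on control. On dextrose all libraries were above the controls, by 1.10 ± 0.22 (adjusted p 0.0114), and among the fructose libraries fructose 1 was below control 4, with a log2 fold change of 1.09 ± 0.22 (adjusted p 0.0055). Cmpk2 was at 0.78 on fructose (adjusted p 0.0205) and 0.51 on dextrose (adjusted p 0.264), and Xaf1, which promotes cell death, was at 0.56 (adjusted p 0.0714) and 0.83 (adjusted p 0.0166). The other 7 (Ifitm3, Rtp4, Eif2ak2, Ifi35, Sp100, Lgals3bp and Mx1) were called on neither sugar, with log2 fold changes of -0.02 to 0.54 on fructose and 0.04 to 0.65 on dextrose. Ifitm3 blocks viral entry at membranes and Eif2ak2 is the kinase PKR, which halts translation on double-stranded RNA.

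Of the sensors of RNA and DNA, 2 of 4 rose on fructose and 2 of 4 on dextrose, Zbp1 and Dhx58. Zbp1 recognises nucleic acids in the left-handed Z form and can start necroptosis, a form of cell death that matters in the intestinal epithelium. Zbp1 was at 43.1, 48.1, 45.7, 72.6 and 73.4 CPM on fructose, 98.3, 82.7, 44.2, 88.4 and 82.5 CPM on dextrose, and 23.7, 43.4, 28.0, 32.0 and 35.2 CPM on control. On dextrose all libraries were above all controls, by 1.29 ± 0.22 (adjusted p 0.0037), and among the fructose libraries fructose 1 was just below control 2, with a log2 fold change of 0.80 ± 0.22 (adjusted p 0.0364). Dhx58, or LGP2, tunes the other RNA sensors and was at 12.4, 16.1, 19.6, 23.2 and 21.9 CPM on fructose, 22.6, 16.9, 16.5, 17.0 and 18.9 CPM on dextrose, and 8.87, 11.96, 8.44, 12.1 and 10.3 CPM on control. The controls lay below all sugar libraries, by 0.85 ± 0.16 for fructose (adjusted p 0.00339) and 0.83 ± 0.16 for dextrose (adjusted p 0.0094).

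The RNA sensors that start interferon production, Ddx58 (RIG-I) and Ifih1 (MDA5), were not called. Ddx58 was at 43.8, 63.0, 60.8, 71.5 and 89.1 CPM on fructose, 80.5, 66.7, 62.4, 60.7 and 75.7 CPM on dextrose, and 52.6, 53.4, 52.8, 62.3 and 56.0 CPM on control. Its sugar libraries overlapped the controls, at 0.24 ± 0.14 on fructose (adjusted p 0.367) and 0.32 ± 0.14 on dextrose (adjusted p 0.398). Ifih1 was at 84.2, 96.7, 109, 134 and 127 CPM on fructose, 131, 125, 101, 122 and 123 CPM on dextrose, and 79.5, 90.1, 86.4, 95.3 and 97.4 CPM on control. All dextrose libraries were above the controls, but its log2 fold change of 0.42 ± 0.12 missed the threshold (adjusted p 0.0716), as did 0.30 ± 0.12 on fructose (adjusted p 0.149).

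Of the 4 transcription factors 0 were called on fructose and 1 on dextrose. Irf7, the amplifier of type I interferon production, was at 166, 195, 184, 241 and 228 CPM on fructose, 288, 259.6, 202, 216 and 219 CPM on dextrose, and 159.7, 144, 131, 201 and 148 CPM on control. It rose on dextrose, where each library exceeded the highest control of 201 CPM, by 0.60 ± 0.13 (adjusted p 0.0205), and was not called on fructose at 0.37 ± 0.13 (adjusted p 0.111). Irf1, a factor for interferon gamma responses with a steady role in epithelium, was at 198, 206, 213, 201 and 272 CPM on fructose, 237, 207, 232, 216 and 245 CPM on dextrose, and 211, 141, 159, 201 and 123 CPM on control. The highest control, at 211 CPM, was within the range of both sugars, and neither difference was called, at 0.39 ± 0.13 on fructose (adjusted p 0.0985) and 0.45 ± 0.13 on dextrose (adjusted p 0.103). Stat2 was at 55.6, 66.4, 80.0, 89.8 and 90.4 CPM on fructose, 70.6, 63.9, 70.7, 69.9 and 104 CPM on dextrose, and 53.8, 46.0, 51.6, 75.8 and 58.1 CPM on control. The groups overlapped at 0.42 ± 0.16 on fructose (adjusted p 0.146) and 0.41 ± 0.16 on dextrose (adjusted p 0.31). Irf9, the DNA-binding partner of Stat2, was at 0.21 on fructose and 0.10 on dextrose and was not called.

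Parp9, Dtx3l and Parp14 rose on both sugars. Parp9 and Dtx3l are divergently placed partners that modify proteins with ADP-ribose and ubiquitin, and Parp14 adds ADP-ribose. Parp9 was at 127, 147, 129, 156 and 162 CPM on fructose, 149, 117, 123, 135 and 161 CPM on dextrose, and 101, 92.6, 87.1, 105 and 87.2 CPM on control. Neither sugar overlapped the controls for Parp9. The spread was small enough for log2 fold changes of 0.61 ± 0.10 on fructose (adjusted p 0.00111) and 0.54 ± 0.10 on dextrose (adjusted p 0.00705) to pass. Dtx3l was at 107, 115, 115, 114 and 139.6 CPM on fructose, 115, 88.1, 107, 89.1 and 155 CPM on dextrose, and 70.5, 65.6, 64.1, 84.7 and 59.4 CPM on control. It was apart from the controls on both sugars, by 0.78 ± 0.14 on fructose (adjusted p 0.00231) and 0.69 ± 0.14 on dextrose (adjusted p 0.0126). Parp14 rose by 0.75 on fructose and 0.67 on dextrose (adjusted p 0.00381 and 0.0182).

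Of the 7 GTPases of the GBP and IRG families, which attack the vacuoles of intracellular microbes and respond strongly to interferon gamma, 3 rose on fructose and 3 on dextrose, Irgm1, Gbp3 and Igtp. Gbp3 was at 8.71, 8.48, 11.98, 13.8 and 10.97 CPM on fructose, 10.7, 10.02, 7.30, 9.90 and 9.63 CPM on dextrose, and 4.22, 5.47, 5.36, 7.26 and 5.93 CPM on control. Each sugar library was above each control, by 0.93 ± 0.17 on fructose (adjusted p 0.00222) and 0.75 ± 0.17 on dextrose (adjusted p 0.0224). Igtp, or Irgm3, was at 32.6, 42.2, 55.7, 54.4 and 74.0 CPM on fructose, 58.0, 42.6, 45.2, 38.8 and 67.2 CPM on dextrose, and 28.8, 29.3, 29.3, 29.2 and 24.0 CPM on control. The controls kept to a narrow band of 24.0 to 29.3 CPM below all sugar libraries, with log2 fold changes of 0.88 ± 0.19 on fructose (adjusted p 0.00753) and 0.84 ± 0.19 on dextrose (adjusted p 0.0224). Gbp2 was at 3.97, 2.59, 3.37, 1.54 and 3.10 CPM on fructose, 4.29, 2.32, 2.68, 3.23 and 4.56 CPM on dextrose, and 1.57, 3.87, 3.45, 3.21 and 2.78 CPM on control. At these low levels its groups overlapped almost wholly, at -0.03 ± 0.28 on fructose (adjusted p 0.975) and 0.20 ± 0.28 on dextrose (adjusted p 0.936). Gbp7, Irgm2 and Iigp1 were not called, at 0.78, 0.49 and -0.63 on fructose and 0.84, 0.83 and -0.25 on dextrose. Members of both families resemble one another, so reads shared between them make single values uncertain.

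**Figure D3:**
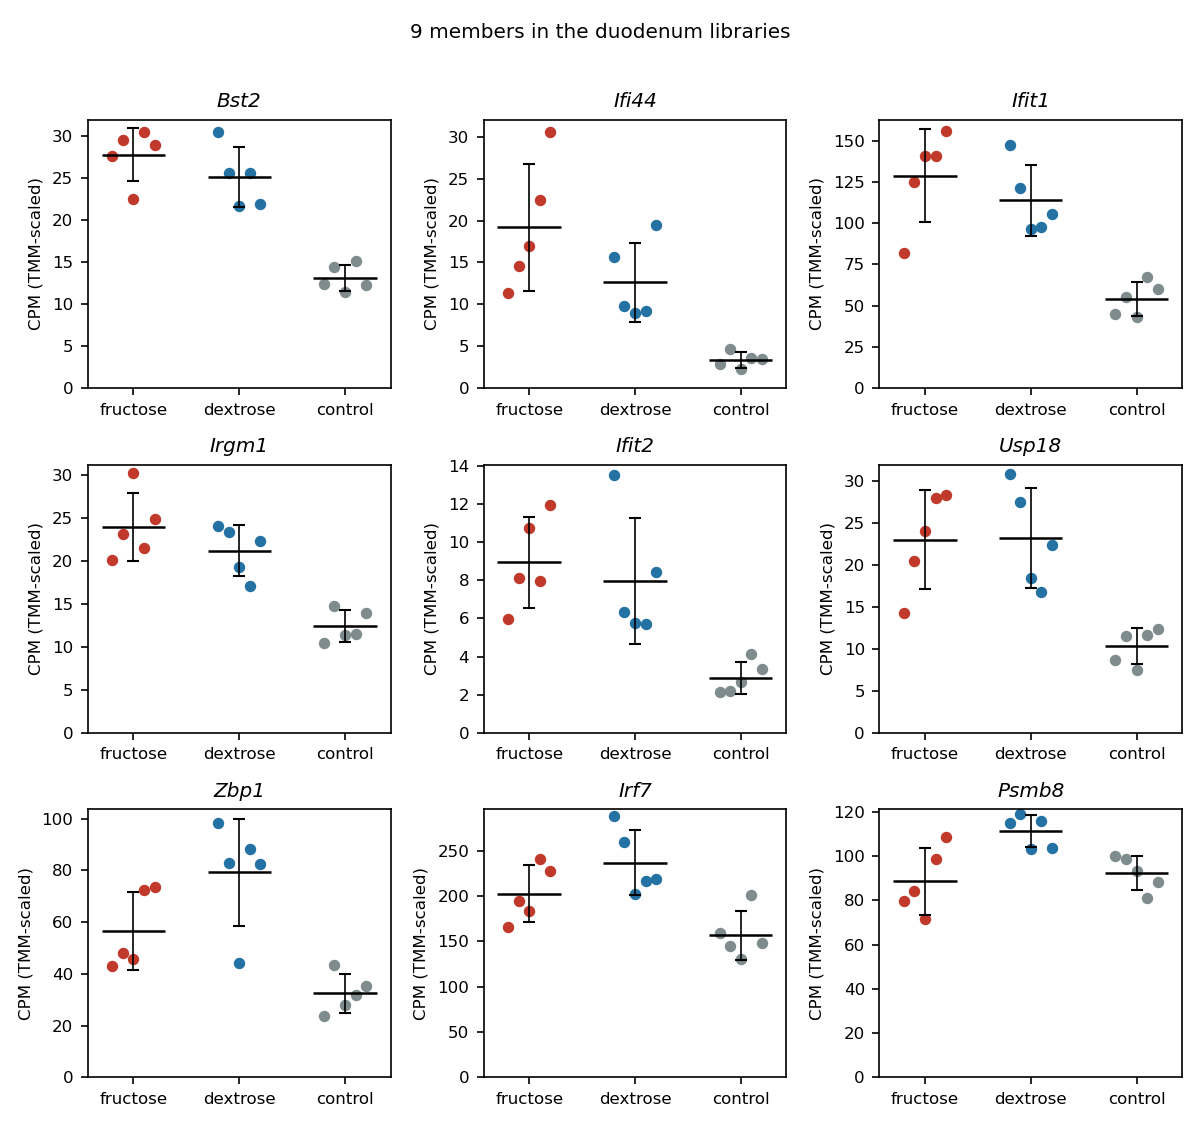
CPM (y axis) of 9 of the genes in the 5 duodenum libraries of each diet, fructose, dextrose and control, with the mean as a line and the SD as bars. For Bst2, Ifi44, Ifit1, Irgm1, Ifit2 and Usp18 all points on either sugar lie above all control points, and for Psmb8 the fructose points overlap the controls.

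Genes of antigen processing were called in 0 of 3 cases on fructose and 1 of 3 on dextrose. Tap1, which carries peptides into the endoplasmic reticulum for MHC class I, was at 78.0, 86.0, 90.3, 85.8 and 127 CPM on fructose, 121, 105, 100.5, 93.7 and 135 CPM on dextrose, and 87.1, 77.7, 72.5, 79.7 and 71.4 CPM on control. All dextrose libraries were above the controls, by 0.52 ± 0.13 (adjusted p 0.0379), and the fructose libraries overlapped them, at 0.27 ± 0.13 (adjusted p 0.26). Psmb8, an immunoproteasome subunit, was at 79.8, 84.1, 71.5, 98.9 and 109 CPM on fructose, 115, 119, 103, 116 and 104 CPM on dextrose, and 100.2, 98.9, 93.3, 81.2 and 88.2 CPM on control. The dextrose libraries were all above the controls without a call, at 0.27 ± 0.10 (adjusted p 0.287), and on fructose the difference was -0.06 ± 0.10 (adjusted p 0.804). Psmb9, its partner subunit, was at -0.07 on fructose and 0.21 on dextrose. Cxcl10, which draws T cells, was at 1.21, 1.61, 1.44, 0.536 and 2.86 CPM on fructose, 2.90, 1.04, 2.18, 0.945 and 1.183 CPM on dextrose, and 0.692, 0.773, 0.986, 1.86 and 1.24 CPM on control. These levels were low and overlapping, and Cxcl10 was not called, at 0.46 ± 0.42 on fructose (adjusted p 0.597) and 0.56 ± 0.42 on dextrose (adjusted p 0.762).

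Single duodenum libraries ran through many of the genes together. Fructose 1 was the lowest of its group for 38 of the 48, and control 4 the highest of the controls for 31. The 7 genes called on fructose whose groups overlapped were Trim30a, Ifit3, Isg15, Cmpk2, Oas1a, Zbp1 and Oasl2. With 1 library left out at a time, 20 of the 25 calls on fructose held in every case. Those of Oas1a, Oas1g, Cmpk2, Zbp1 and Oasl2 did not. On dextrose 13 of the 23 held in every case. Those of Ifit3, Isg15, Oas2, Oasl2, Xaf1, Irf7, Parp14, Gbp3, Igtp and Tap1 did not. The 9 genes called on fructose without the libraries that stood apart were Ifi44, Ifit1, Ifit2, Usp18, Oasl1, Rsad2, Bst2, Parp9 and Irgm1, with log2 fold changes of 0.57 to 2.41, and the 6 on dextrose were Ifi44, Ifit1, Usp18, Zbp1, Bst2 and Irgm1, with 0.79 to 1.76.

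Fructose and dextrose were not told apart by any of the 48 genes in the duodenum. In this comparison 0 of 48 were called, against 3.64% of all genes, and the median log2 fold change of fructose over dextrose was -0.00, with 24 of the 48 below 0. An unadjusted p under 0.05 was reached by 7 of the 48, and DESeq2 called 2, upper-quartile scaling 1 and limma on log2(FPKM + 1) 1. The smallest adjusted p was that of Oasl1, at 0.44 ± 0.13 (adjusted p 0.0635), where the fructose and dextrose libraries overlapped. Psmb8 was at -0.33 ± 0.10 (adjusted p 0.0961), Rsad2 at 0.75 ± 0.25 (adjusted p 0.123), and Zbp1 at -0.49 ± 0.21 (adjusted p 0.271). Thus Oasl1 and Rsad2 were higher on fructose in their means and Zbp1 and Psmb8 higher on dextrose, without passing the test, and a p that misses the threshold does not show that the sugars act alike.

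The interferons themselves were barely seen. Of the 21 ligand genes listed, 14 had 0 counts in all 30 libraries, and none had more than 3 counts in any library, so none was tested. Ifnb1 and Ifnl3 had 0 counts throughout and Ifnl2 had 1 count in all. Ifng had 6 counts over the fructose, 6 over the dextrose and 9 over the control libraries of the duodenum. At this depth no difference in a ligand was detectable.

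Around the 48 genes, 145 further genes of the pathway were listed, from ligands and receptors to other interferon-stimulated genes, and 115 were tested in the duodenum. Over all genes tested, 4.01% were called higher and 2.7% lower on fructose, and 1.15% and 1.09% on dextrose. On fructose 18 of the 115 rose and 3 fell, the latter a share near that of all genes, with a median log2 fold change of 0.08. On dextrose 11 rose and 0 fell, with a median of 0.17. Of those that rose, 15 of 18 on fructose and 10 of 11 on dextrose were on the list of further interferon-stimulated genes, which made up 78 of the 115 tested. They included Ifit1bl1 by 1.97 on fructose and 1.89 on dextrose, Rnf213 by 0.81 and 0.88, Phf11d by 1.24 and 1.17, and Lgals9, a galectin, by 0.64 and 0.40. Ifngr1, the ligand-binding chain of the interferon gamma receptor, rose by 0.44 on fructose and was at 0.20 on dextrose, not called. The 3 that fell on fructose were H2-Q4, an MHC class I gene, by 0.49, Ifnar2 by 0.52, and Ptpn6, a phosphatase that restrains cytokine signalling, by 0.34. Ifnar1, Ifnlr1, Jak1, Tyk2 and Socs1, a feedback inhibitor, were called on neither sugar, at -0.22, 0.17, 0.13, -0.18 and 0.07 on fructose and -0.11, -0.26, 0.08, -0.04 and 0.12 on dextrose. Between fructose and dextrose, 3 of these genes were lower on fructose and none higher: H2-Q4 at -0.68, Parp10 at -0.49 and Irf8 at -0.43. Over all genes tested 3.64% were called in this comparison, so these 3 of 115 are no larger a share.

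On the immune cell lists described here, only Bst2 was called in the duodenum for either sugar against control. Irf8, on the plasmacytoid dendritic cell list, was lower on fructose than on dextrose, as given above. The summed T and NK cell list of 12 genes, all 12 with a count in every library, was at 90 to 197 CPM on fructose, 115 to 232 CPM on dextrose and 141 to 383 CPM on control, and 0 of its 11 tested genes were called on either sugar. The macrophage and monocyte list was at 40.2 to 105 CPM on fructose, 40.8 to 99.0 CPM on dextrose and 40.4 to 165 CPM on control, also with 0 calls among 10. The plasmacytoid dendritic cell list, which holds Bst2, was at 127 to 161 CPM on fructose, 144 to 184 CPM on dextrose and 131 to 148 CPM on control, and 1 of its 6 tested genes was called higher on each sugar, which was Bst2 itself. None of the defining markers was at 0 throughout in these lists. Lists of B and plasma cells, conventional dendritic cells and neutrophils were also summed and are not reported here. Of 10 enterocyte markers 1 rose and 3 fell on fructose, and 1 rose and 2 fell on dextrose. Over all genes tested, 4.01% were called higher and 2.7% lower on fructose, and 1.15% and 1.09% on dextrose. The summed enterocyte list was at 32511 to 46255 CPM on fructose, 36207 to 44213 CPM on dextrose and 41420 to 45364 CPM on control. The part of these cells in the result was not tested.

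In the liver none of the 48 genes was called for either sugar. Fructose against control gave 0 calls, where 0.258% of all 13178 genes tested were called, and dextrose against control gave 0, where 0% of all genes were called. Fructose against dextrose gave 0, against 0.0759% of all genes. The median log2 fold change of the 48 was 0.13 on fructose and 0.16 on dextrose, relative to the same controls. An unadjusted p under 0.05 was reached by 6 genes for fructose, 5 for dextrose and 4 between them, and DESeq2 called 0 in each of the 3 comparisons.

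The IFIT and ISG15 genes named here were at most 21.9 CPM in every liver, and dextrose 5 or control 2 was the highest library for each. Ifi44 was at 8.11, 4.26, 7.80, 5.02 and 6.40 CPM on fructose, 3.59, 3.13, 4.26, 4.57 and 8.95 CPM on dextrose, and 3.03, 8.48, 1.89, 4.02 and 3.02 CPM on control. The fructose libraries overlapped the controls, at 0.62 ± 0.37 (adjusted p 0.534), and the dextrose ones at 0.26 ± 0.37 (adjusted p 0.969). Ifit1 was at 7.38, 7.62, 8.71, 9.19 and 10.7 CPM on fructose, 9.14, 11.7, 5.81, 8.71 and 11.8 CPM on dextrose, and 9.79, 10.8, 5.23, 6.84 and 9.79 CPM on control. Its groups covered the same range, with log2 fold changes of 0.04 ± 0.21 on fructose and 0.15 ± 0.21 on dextrose. Ifit2 was at 8.37, 4.89, 7.86, 7.56 and 6.72 CPM on fructose, 5.48, 5.08, 5.34, 5.66 and 11.6 CPM on dextrose, and 4.52, 12.6, 3.40, 5.63 and 4.23 CPM on control. Control 2, at 12.6 CPM, was the highest of all, and the log2 fold changes were 0.21 ± 0.33 on fructose and 0.13 ± 0.33 on dextrose. Isg15 was at 6.99, 9.22, 10.9, 10.7 and 12.2 CPM on fructose, 9.27, 7.95, 7.64, 5.54 and 15.5 CPM on dextrose, and 11.2, 12.6, 5.35, 7.47 and 12.2 CPM on control. No order of diets showed, at 0.03 ± 0.27 on fructose and -0.09 ± 0.27 on dextrose. Usp18 was at 8.63, 7.34, 8.16, 7.21 and 9.69 CPM on fructose, 11.4, 9.64, 7.64, 8.52 and 21.9 CPM on dextrose, and 9.56, 15.5, 5.60, 7.47 and 11.7 CPM on control. Dextrose 5 alone exceeded 20 CPM, and the log2 fold changes were -0.28 ± 0.29 on fructose and 0.25 ± 0.29 on dextrose.

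The OAS genes, Mx1 and Zbp1 were also low in liver. Oas2 was at 5.34, 4.26, 4.57, 6.08 and 5.36 CPM on fructose, 4.89, 3.71, 3.18, 2.13 and 8.01 CPM on dextrose, and 4.01, 7.27, 0.818, 3.51 and 2.78 CPM on control. Its groups overlapped, at 0.47 ± 0.42 on fructose and 0.25 ± 0.42 on dextrose. Oasl2 was at 10.8, 6.36, 6.64, 6.86 and 7.30 CPM on fructose, 5.55, 5.47, 3.58, 4.87 and 14.9 CPM on dextrose, and 4.69, 12.8, 5.54, 5.63 and 4.41 CPM on control. The highest were dextrose 5 and control 2, and the log2 fold changes were 0.19 ± 0.37 on fructose and 0.06 ± 0.37 on dextrose. Mx1 was at 1.32, 1.26, 1.22, 2.83 and 1.74 CPM on fructose, 2.54, 1.43, 0.608, 1.52 and 3.63 CPM on dextrose, and 1.43, 3.40, 0.881, 0.402 and 1.51 CPM on control. These are few counts, and the log2 fold changes of 0.11 ± 0.50 and 0.34 ± 0.50 had wide errors. Zbp1 was at 4.09, 4.89, 6.46, 5.30 and 3.10 CPM on fructose, 5.35, 5.15, 6.69, 4.32 and 12.8 CPM on dextrose, and 4.81, 7.90, 3.15, 5.00 and 6.23 CPM on control. Dextrose 5 was again above the rest, at -0.19 ± 0.30 for fructose and 0.34 ± 0.30 for dextrose.

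The transcription factors and RNA sensors named here were also not called in the liver with all libraries. Stat2 was at 90.6, 76.9, 84.1, 70.7 and 67.9 CPM on fructose, 61.4, 65.2, 80.9, 69.4 and 69.0 CPM on dextrose, and 71.0, 64.2, 60.1, 63.6 and 50.8 CPM on control. It had the smallest adjusted p for fructose, 0.251, at 0.33 ± 0.11, with the top control within the fructose range, and was at 0.16 ± 0.11 on dextrose. Irf7 was at 64.2, 47.9, 65.2, 56.8 and 63.3 CPM on fructose, 50.2, 46.1, 44.5, 39.3 and 76.4 CPM on dextrose, and 33.5, 49.4, 33.7, 44.4 and 54.0 CPM on control. Fructose and control overlapped in 1 place, where fructose 2 was below the controls at 49.4 and 54.0 CPM, and the log2 fold changes were 0.47 ± 0.18 on fructose (adjusted p 0.324) and 0.26 ± 0.18 on dextrose (adjusted p 0.922). Irf1 was at 21.6, 25.6, 22.97, 19.4 and 26.8 CPM on fructose, 24.1, 30.2, 21.1, 31.5 and 30.5 CPM on dextrose, and 16.2, 17.7, 22.4, 21.4 and 19.8 CPM on control. Dextrose 3 alone overlapped the controls among the dextrose libraries, and the log2 fold changes were 0.26 ± 0.13 on fructose (adjusted p 0.474) and 0.50 ± 0.13 on dextrose (adjusted p 0.922). Ddx58 was at 25.5, 20.9, 26.0, 24.5 and 24.4 CPM on fructose, 28.6, 26.1, 15.7, 27.0 and 20.6 CPM on dextrose, and 24.0, 19.5, 18.9, 21.3 and 19.2 CPM on control. Its differences were 0.24 ± 0.14 on fructose and 0.20 ± 0.14 on dextrose, with overlap. Ifih1 was at 37.6, 31.5, 39.1, 27.7 and 35.5 CPM on fructose, 33.6, 35.8, 26.6, 39.5 and 34.3 CPM on dextrose, and 31.7, 27.7, 20.3, 34.8 and 26.5 CPM on control. The control libraries reached both lower and within the sugar ranges, at 0.28 ± 0.14 on fructose and 0.27 ± 0.14 on dextrose.

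The GTPases, antigen processing genes and Cxcl10 were likewise not called in the liver with all libraries. Gbp2 was at 2.97, 3.14, 5.30, 4.67 and 3.23 CPM on fructose, 3.26, 4.23, 3.65, 4.99 and 17.0 CPM on dextrose, and 2.00, 8.11, 5.41, 4.31 and 2.84 CPM on control. A single library, dextrose 5, made up most of its log2 fold change of 0.55 ± 0.46 on dextrose, and that on fructose was -0.24 ± 0.46. Igtp was at 16.5, 12.5, 16.3, 20.1 and 11.4 CPM on fructose, 18.3, 20.3, 22.8, 16.5 and 31.4 CPM on dextrose, and 16.8, 19.8, 19.1, 16.8 and 18.9 CPM on control. Fructose libraries reached below the controls and dextrose libraries above them, at -0.25 ± 0.17 and 0.26 ± 0.17. Tap1 was at 30.8, 30.3, 31.7, 28.2 and 33.3 CPM on fructose, 28.8, 35.0, 26.6, 42.1 and 40.0 CPM on dextrose, and 22.2, 23.02, 33.9, 24.9 and 23.2 CPM on control. Control 3, at 33.9 CPM, was above all fructose libraries and the other 4 controls were below them, and the log2 fold changes were 0.28 ± 0.14 on fructose (adjusted p 0.459) and 0.44 ± 0.14 on dextrose (adjusted p 0.922). Psmb8 was at 20.7, 15.0, 17.7, 17.7 and 19.97 CPM on fructose, 16.8, 16.9, 14.3, 17.8 and 18.1 CPM on dextrose, and 12.2, 10.3, 13.3, 13.4 and 21.5 CPM on control. Control 5 was the highest of the 15 livers, and the log2 fold changes were 0.36 ± 0.16 on fructose and 0.25 ± 0.16 on dextrose. Cxcl10 was at 2.17, 3.63, 3.11, 1.77 and 2.65 CPM on fructose, 1.24, 2.61, 2.37, 2.62 and 14.0 CPM on dextrose, and 1.89, 8.06, 1.64, 3.16 and 2.48 CPM on control. Apart from dextrose 5 and control 2 no liver library exceeded 3.63 CPM, and the log2 fold changes were -0.38 ± 0.60 on fructose and 0.41 ± 0.59 on dextrose. Of the remaining genes, Irgm2 had the only liver difference from control in which the groups did not overlap, with dextrose libraries at 53.4 to 76.3 CPM and controls at 42.1 to 48 CPM (0.48 ± 0.12, adjusted p 0.922), and between fructose and dextrose it had the smallest adjusted p, at -0.41 ± 0.12 (0.253).

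**Figure D4:**
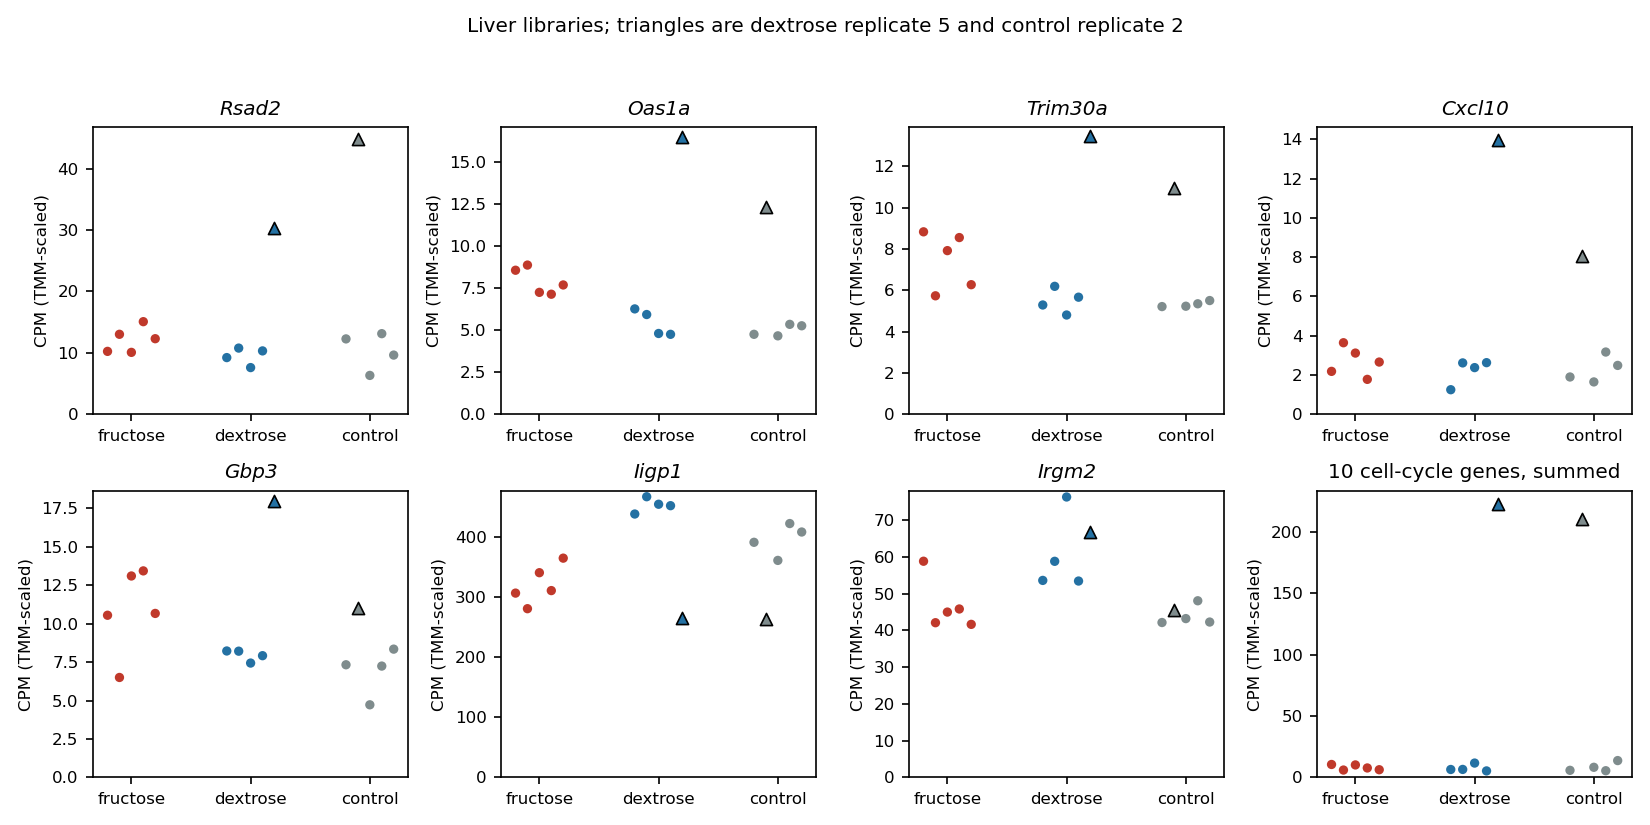
CPM (y axis) of 7 of the genes and the summed CPM of 10 cell cycle genes in the 5 liver libraries of each diet, fructose, dextrose and control, with dextrose 5 and control 2 as triangles. These libraries are the highest for the cell cycle genes, at 223 and 210 CPM, and for Rsad2, Oas1a, Trim30a and Cxcl10; for Iigp1 they are the lowest of their groups, at 264 CPM each.

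Dextrose 5 was the highest of all 15 livers for 21 of the 48 genes, and control 2 the highest of its group for 25. These are the libraries that stood apart by their cell cycle genes; their macrophage and monocyte list was also high, at 940 and 666 CPM. Whether cells of another kind in these libraries bear on their interferon response genes was not tested. Without them, 3 of the 48 were called on fructose against control, Ifi44 at 1.07 (adjusted p 0.0298), Oas1a at 0.66 (adjusted p 0.0265) and Cmpk2 at 0.67 (adjusted p 0.026), where the values with all libraries were 0.62, 0.28 and 0.30. Between fructose and dextrose 3 were then called as well, Oas1a at 0.55, Cmpk2 at 0.59 and Iigp1 at -0.48. Without the 4 livers high in acinar markers, a choice made after seeing the data, 2 were called on fructose against control, Irf7 at 0.68 and Cmpk2 at 0.76, 0 on dextrose against control, and 1 between fructose and dextrose, Iigp1 at -0.49.

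Whether a sugar acted differently in the tissues was tested as the difference of its effects, duodenum minus liver, in a fit to all 30 libraries. For fructose, 4 of the 48 had a larger effect in the duodenum and 0 a smaller one, against 0.668% and 0.413% of all 15268 genes. They were Irgm1 at 0.91 ± 0.17 (adjusted p 0.00422), Bst2 at 0.97 ± 0.19 (adjusted p 0.00722), Ifit1 at 1.24 ± 0.28 (adjusted p 0.024) and Igtp at 1.15 ± 0.27 (adjusted p 0.0293). For Bst2, the fructose livers were at 221, 201, 197, 211 and 200.0 CPM and the control livers at 156, 206, 203, 163 and 215 CPM, with no separation like that in the duodenum. Irgm1 was at 44.6, 43.5, 49.3, 39.9 and 39.4 CPM in fructose livers and 43.6, 38.6, 36.9, 48.4 and 40.1 CPM in control livers. Usp18 at 1.46 and Ifi44 at 1.92, both with an adjusted p of 0.0504, and Rsad2 at 2.09 (adjusted p 0.0716) were not called. The difference was above 0 for 42 of the 48, with a median of 0.46, against 0.02 over all genes.

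For dextrose 0 of the 48 passed, against 0.118% of all genes; the difference was above 0 for 43, with a median of 0.47, and 18 had an unadjusted p under 0.05. Bst2 came closest, at 0.90 ± 0.19 (adjusted p 0.0503), and it was the 1 gene called by DESeq2, with a minimum mean of 1 CPM, or without the libraries that stood apart. Most of the 25 genes that rose on fructose in the duodenum are thus not shown to differ from their liver effect. The 4 calls for fructose became 2, Bst2 and Irgm1, without the libraries that stood apart, 2 without duodenum fructose 3, duodenum fructose 5 or liver fructose 2, 7 without liver dextrose 5 and 8 without liver control 3. Without the 4 livers high in acinar markers 4 were called, Bst2, Irgm1, Igtp and Rsad2, and Bst2 was called for dextrose.

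The 48 genes were also compared between the tissues on the control diet. Levels are compared here as FPKM, counts scaled by library total and gene length, which allow different genes to be set side by side. The calls and log2 differences here and for the receptors below come from the fit of scaled counts to all 30 libraries. They therefore need not equal the ratio of the FPKM means. On the control diet 29 of the 48 were higher in duodenum than in liver and 13 lower, against 37.3% of all genes called higher and 37.3% lower. Igtp, Ifi44, Usp18, Dhx58, Ifit3 and Oas2 were not called. The median over the 48 of the mean FPKM was 27.8 on fructose, 27.7 on dextrose and 17.1 on control in duodenum, and 8.56, 9.98 and 9.27 FPKM in liver on the same diets.

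The duodenum was the higher tissue for 5 of the 6 OAS genes, 3 of 3 antigen processing genes and 3 of 3 of Parp9, Dtx3l and Parp14. Oas3 averaged 24.8 ± 4.40 FPKM in control duodenum and 0.961 ± 0.743 FPKM in control liver (SD, n = 5 each), a log2 difference of 4.43. Irf1 averaged 151 ± 34.4 FPKM in duodenum and 17.3 ± 2.01 FPKM in liver, a log2 difference of 2.80. Lgals3bp, a secreted glycoprotein, had the highest duodenum level of the 48, 311 ± 34.6 FPKM against 94.3 ± 37.0 FPKM in liver. Oasl2 at 3.67, Oas1g at 3.08, Oasl1 at 2.79, Sp100 at 2.63 and Psmb8 at 2.42 were the other large differences toward the duodenum among the genes named here.

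The liver was the higher tissue for 6 of the 7 GBP and IRG GTPases, for Cxcl10 and for both membrane restriction factors. Ifitm3 averaged 29.5 ± 8.54 FPKM in control duodenum and 604 ± 53.7 FPKM in control liver, the highest level of the 48 in that tissue. Bst2 averaged 17.5 ± 2.32 FPKM in duodenum and 250.01 ± 55.9 FPKM in liver, a log2 difference of -4.13. Iigp1, an IRG GTPase of the group that coats pathogen vacuoles, averaged 0.493 ± 0.305 FPKM in duodenum and 121 ± 12.2 FPKM in liver, at -8.26 the largest difference of the 48. Bst2 and Irgm1, which rose on both sugars in the duodenum, had lower mean FPKM there than in liver on each of the 3 diets: Bst2 averaged 35.3 ± 3.48 FPKM in fructose duodenum and 264 ± 11.3 FPKM in fructose liver, and Irgm1 9.57 ± 1.71 FPKM and 17.4 ± 1.91 FPKM in the same groups.

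**Figure D5:**
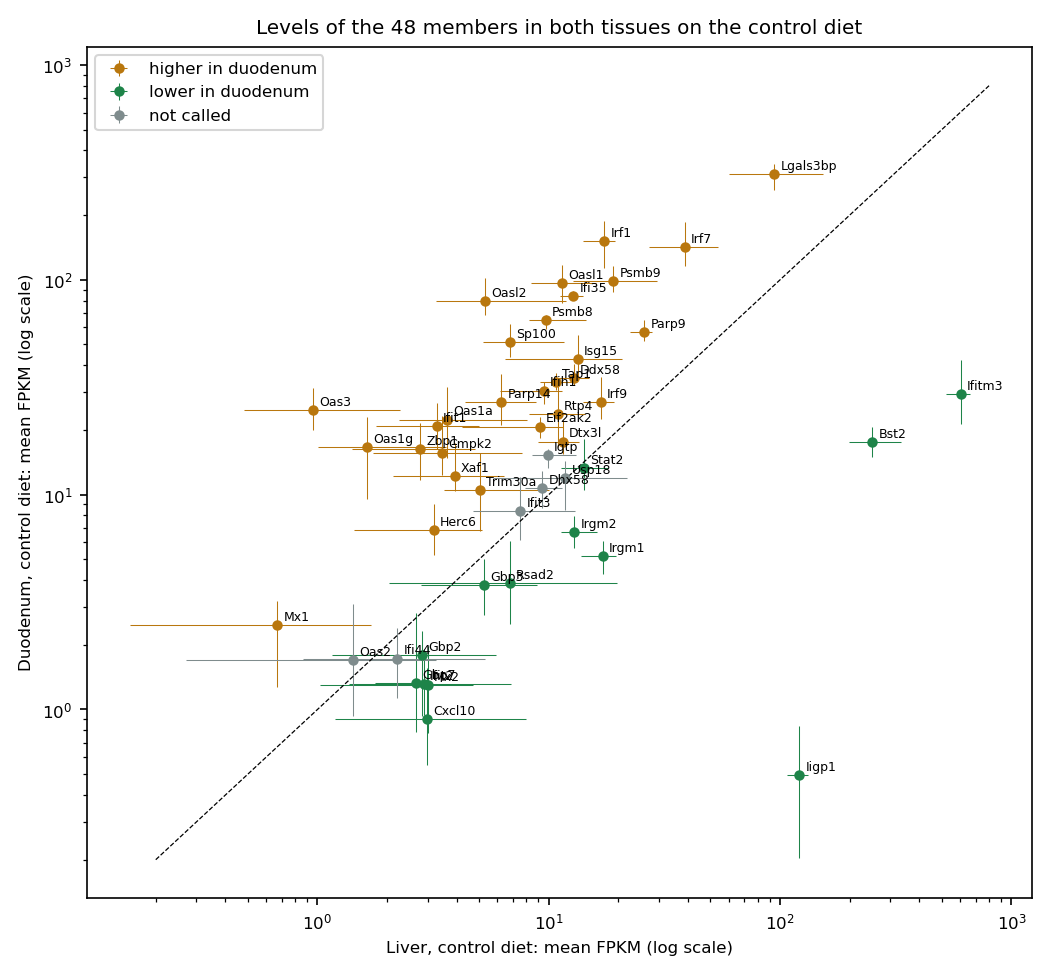
Mean FPKM of each of the 48 genes in control duodenum (y axis) against control liver (x axis), both on log scales, with bars from the lowest to the highest of 5 libraries and colours by the test of the difference. Iigp1, Ifitm3 and Bst2 lie far below the diagonal, and Oas3, Oasl2 and Irf1 far above it.

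The receptors of the pathway were also unequal. Ifnlr1, the lambda interferon receptor, averaged 7.67 ± 1.71 FPKM in control duodenum and 0.119 ± 0.184 FPKM in control liver (SD, n = 5 each), a log2 difference of 5.71. Of the 47 counts in the control livers 36 were in control 2, without which the liver averaged 0.0368 ± 0.0224 FPKM (n = 4) and the log2 difference was 7.24. Ifngr1 was higher in duodenum by 2.21, Socs1 by 1.95 and Tyk2 by 0.31. Ifnar2 was at -1.33, lower in duodenum, and Ifnar1 at 0.04 was not called (adjusted p 0.781). Liver control 2 also held 853 of the 1864 Ifngr1 counts in the control livers. Without that library Ifngr1 was at 2.57, Socs1 at 2.15, Tyk2 at 0.33, Ifnar2 at -1.42 and Ifnar1 at 0.06.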

How the data were processed

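The authors deposited raw read counts per gene and FPKM for 47069 genes in each library; per the submitters' processing notes TopHat2 2.0.12, Bowtie2 2.2.3, HTSeq 0.6.1 and DESeq 1.18.0 were used, and the genome build is not given in the sources used here. The deposited FPKM equal count over length and library total within a tolerance of 0.001 for 100% of values. The library kit, per the labels' protocols, was not stated to keep strand, so reads of a gene and an overlapping antisense gene cannot be told apart.

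Tests on the counts used edgeR 4.0.16 (R 4.3.3). Genes passed filterByExpr by group, libraries were scaled by TMM, and the quasi-likelihood F test (robust, two-sided) was adjusted by Benjamini-Hochberg over all genes tested at a threshold of 0.05. Within a tissue the 15 libraries were fitted together. Tissue differences used a fit to all 30 libraries. SE is the log2 fold change divided by the square root of F. The code was tested on simulated data. Alternatives were upper-quartile and RLE factors, a minimum mean of 1 CPM or no filter, DESeq2 1.42.0, limma 3.58.1 on log2(FPKM + 1), a replicate block, leaving out libraries, stricter thresholds, and fits of only the diets compared.

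The members and lists were chosen with earlier results of these data known. Values in every library are given for up to 12 called members per comparison with the smallest p and for 19 fixed members; for the control diet, means and SD are given instead. Of the wider pathway, the 6 called genes with the smallest p and 11 fixed genes are named, of which 1 is not reported here, and a few others were chosen after their values were seen. Promoters came from RefSeq (GRCm38.p6). Any 2 libraries of a group differed beyond counting error, with chi-square values of 8.23 or more per degree of freedom.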

Additional observations from a re-analysis of the deposited data

Results flagged for a closer look

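Within groups of 5 libraries, single libraries lay far from the other 4 by Dixon's criterion for 44 of the 288 combinations of gene and group (15.3%), where chance flags about 1 in 20; the genes share libraries, so these are not independent. Of the 44, 32 were in liver and 12 in duodenum.

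In liver, dextrose 5 lay above the rest of its group for 15 genes: Ifi44 (8.95 CPM), Ifit2 (11.65 CPM), Usp18 (21.95 CPM), Oas1a (16.5 CPM), Oas1g (6.38 CPM), Oasl2 (14.9 CPM), Rsad2 (30.4 CPM), Zbp1 (12.8 CPM), Bst2 (284 CPM), Gbp2 (17.0 CPM), Gbp3 (17.99 CPM), Cxcl10 (14.0 CPM), Trim30a (13.5 CPM), Cmpk2 (20.3 CPM) and Lgals3bp (161 CPM). It lay below the rest for Iigp1, at 264 CPM. Liver control 2 lay above its group for 10 genes: Ifit2 (12.6 CPM), Oas1a (12.3 CPM), Oas1g (4.12 CPM), Oas3 (4.62 CPM), Oasl2 (12.8 CPM), Rsad2 (44.8 CPM), Cxcl10 (8.06 CPM), Trim30a (10.96 CPM), Cmpk2 (19.9 CPM) and Sp100 (13.7 CPM). These are the livers with high cell cycle genes, 223 CPM in dextrose 5 and 210 CPM in control 2; the part of that in the result was not tested. Other livers stood out for single genes: fructose 1 was above its group for Oasl2 (10.8 CPM) and Irgm2 (58.8 CPM), fructose 4 below for Dtx3l (43.9 CPM), dextrose 4 above for Ifi35 (15.7 CPM), control 3 above for Tap1 (33.9 CPM) and control 5 above for Psmb8 (21.5 CPM).

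In the duodenum, dextrose 5 lay above its group for 6 genes: Oas2 (18.1 CPM), Mx1 (9.575 CPM), Mx2 (9.575 CPM), Stat2 (104 CPM), Gbp7 (14.9 CPM) and Irgm2 (66.9 CPM). Fructose 5 lay above for Irf1 (272 CPM), Dtx3l (139.6 CPM) and Tap1 (126.5 CPM), fructose 4 above for Mx1 (10.99 CPM), control 4 above for Gbp7 (10.8 CPM) and control 5 below for Igtp (24.0 CPM).

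The effect of fructose differed between duodenum and liver, by the test of the difference itself, for Ifit1 (1.24), Igtp (1.15), Bst2 (0.97) and Irgm1 (0.91), as log2 differences of duodenum minus liver.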

How the results depend on the processing

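The counts of 25 genes called on fructose and 23 on dextrose in the duodenum came to 9 and 6 without the libraries that stood apart, to 12 and 10 with an absolute log2 fold change of at least 1, and to 10 on dextrose at an adjusted p under 0.01; under the other alternatives that kept all libraries they stayed within 1.5 times. Between fructose and dextrose in the duodenum, 0 calls became 1 with upper-quartile factors, 2 with DESeq2 and 1 with limma on log2(FPKM + 1). In liver, 0 calls became 3 for fructose against control and 3 for fructose against dextrose without the libraries that stood apart. The 4 calls for the tissue difference of the fructose effect became 9 with DESeq2 and 2 each at the stricter adjusted p, at the fold minimum and without the libraries that stood apart; the 0 calls for dextrose became 1 each with a minimum mean of 1 CPM, DESeq2 or without those libraries. Without the 4 livers high in acinar markers, chosen after seeing the data, there were 2 calls for liver fructose against control, 1 for liver fructose against dextrose, and 4 and 1 for the tissue differences. The causes were not tested.

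Leaving out 1 library at a time gave 20 to 28 calls for fructose and 13 to 26 for dextrose in the duodenum, 0 to 1 between the sugars, 0 in each liver comparison, 2 to 8 and 0 to 1 for the tissue differences of fructose and dextrose, and 39 to 42 for the control diet. Among single genes, 23 of 3472 values changed sign, none of a gene called with all libraries. With 1 library left out, the log2 fold change on fructose in the duodenum ran from -0.19 to 0.13 for Gbp2, -0.14 to 0.0087 for Psmb8, -0.15 to 0.0034 for Psmb9 and -0.16 to 0.10 for Sp100, that on dextrose from -0.075 to 0.21 for Ifitm3 and -0.59 to 0.012 for Iigp1, and that between fructose and dextrose in liver from -0.089 to 0.54 for Oas1a. Irf9 on dextrose in the duodenum was at -0.016 without the libraries that stood apart.

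With the replicate block the calls were 24 for fructose and 21 for dextrose in the duodenum, 0 between the sugars, 0 in each liver comparison, 4 and 0 for the tissue differences, and 40 for the control diet. This block joined libraries of equal number across all diets, so it does not stand for single mice and does not test a pairing of the tissues. The numbers were not taken to pair the samples, as the labels do not say that equal numbers mark the same mouse. In 0 of 9 pairs of groups were all 5 correlations of same-numbered libraries above 0.1. At most 3 of 5 libraries matched their own number best. These pairs include different diets of the same tissue, and samples of a mouse from unlike tissues can correlate weakly. The correlations therefore cannot decide whether a duodenum and a liver of equal number shared a mouse. At this depth no ligand reached the counts needed for a test.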
